A study of Caenorhabditis elegans with 11 samples.

Results

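The genes described here are 38 named genes of Caenorhabditis elegans that license and fire replication origins, copy DNA, supply its nucleotides and drive the cell cycle. They were chosen by their names, with earlier results of these data known, and 37 of the 38 were found in the deposited tables. No row of these tables carried the name cdc-45, so no value is given for it. The expression of the 37 was measured by RNA sequencing in 11 libraries of whole larvae at the L4 stage, fed HT115 Escherichia coli, and all 37 passed the filter on low counts, out of 16013 genes tested. The 4 genotypes were wildtype (3 libraries), atfs-1(null) (3 libraries), nhr-180(cmh19) (2 libraries, numbered 2 and 3) and the double mutant atfs-1(null)_nhr-180(cmh19) (3 libraries). The names of the wildtype libraries begin with N2. The labels name no further treatment, and the sources used here do not describe the lesions of the alleles. The protein ATFS-1 drives transcription in the stress response of mitochondria to misfolded proteins, and NHR-180 is a member of the nuclear hormone receptor family.

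DNA replication starts in 2 separated steps. In G1 the origin recognition complex, CDC-6 and CDT-1 load the MCM helicase onto origins, and in S phase kinases activate the helicase by adding CDC-45 and the GINS complex. Primase, replication protein A, the clamp loader and the PCNA clamp then support synthesis, while ribonucleotide reductase makes the deoxynucleotides. Cyclins with their cyclin-dependent kinases order these steps and the entry into mitosis, where Aurora and Polo kinases and the kinetochore act on chromosomes. In an L4 larva most dividing cells are germ cells of the growing gonad, and some somatic lineages such as the vulva also divide. Growing oocytes store mRNA of many of these genes for the embryo. In RNA of whole animals, fewer cells of a type and less RNA per cell cannot be told apart.

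The libraries held between 20860822 and 22921602 counts. Among the 37 genes, the lowest count in a library was 141 and the highest 5233. The mutated genes followed the labels. The level of atfs-1 ran from 52.3 to 54.7 CPM (the count scaled to a common library size after TMM normalization) in wildtype and 40.8 to 47.4 CPM in nhr-180. It was 0.420, 4.20 and 3.51 CPM in atfs-1(null) replicates 1, 2 and 3, and 2.55 to 3.57 CPM in the double mutant. Replicate 1 of atfs-1(null) thus differed from its replicates at atfs-1 itself, with 10 counts against 99 and 81. The level of nhr-180 ran from 3.05 to 4.05 CPM in wildtype, from 4.25 to 5.13 CPM in atfs-1(null), from 0.268 to 0.407 CPM in the nhr-180 mutant and from 0.423 to 0.563 CPM in the double mutant. A pair of libraries stood apart in germline transcripts. The median of 40 sperm genes, as a difference from the mean of wildtype, was 1.72 (log2) in atfs-1(null) replicate 1 and -0.82 in wildtype replicate 2, and results that rest on these libraries are given with and without them. No marker found of the sperm, oocyte, intestine, hypodermis, muscle or neuron lists was at 0 in any library. The intestine marker opt-2 had no row of that name, so 11 of 12 intestine markers were found.

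Most of the 37 genes were higher in the double mutant. Relative to the mean of wildtype, the median of the 37 genes was 0.15, -0.14 and 0.00 (log2 of CPM) in the wildtype libraries, 0.57, 0.16 and 0.44 in the atfs-1(null) libraries, -0.09 and -0.15 in the nhr-180 libraries and 0.61, 0.71 and 0.84 in the double mutant libraries. Every double mutant library thus lay above every other library, with atfs-1(null) replicate 1 the nearest, and atfs-1(null) replicate 2 lay close to wildtype replicate 1. The summed level stood at 2206, 1743 and 1971 CPM in wildtype, at 3033, 2081 and 2613 CPM in atfs-1(null), at 1879 and 1804 CPM in nhr-180 and at 2955, 3148 and 3523 CPM in the double mutant. By this sum atfs-1(null) replicate 1 reached the range of the double mutant. The mean CPM was highest in the double mutant for 35 of the 37 genes and in atfs-1(null) for 2, rpa-2 and pri-1. It was lowest in nhr-180 for 27 genes and in wildtype for 10.

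**Figure D1:**
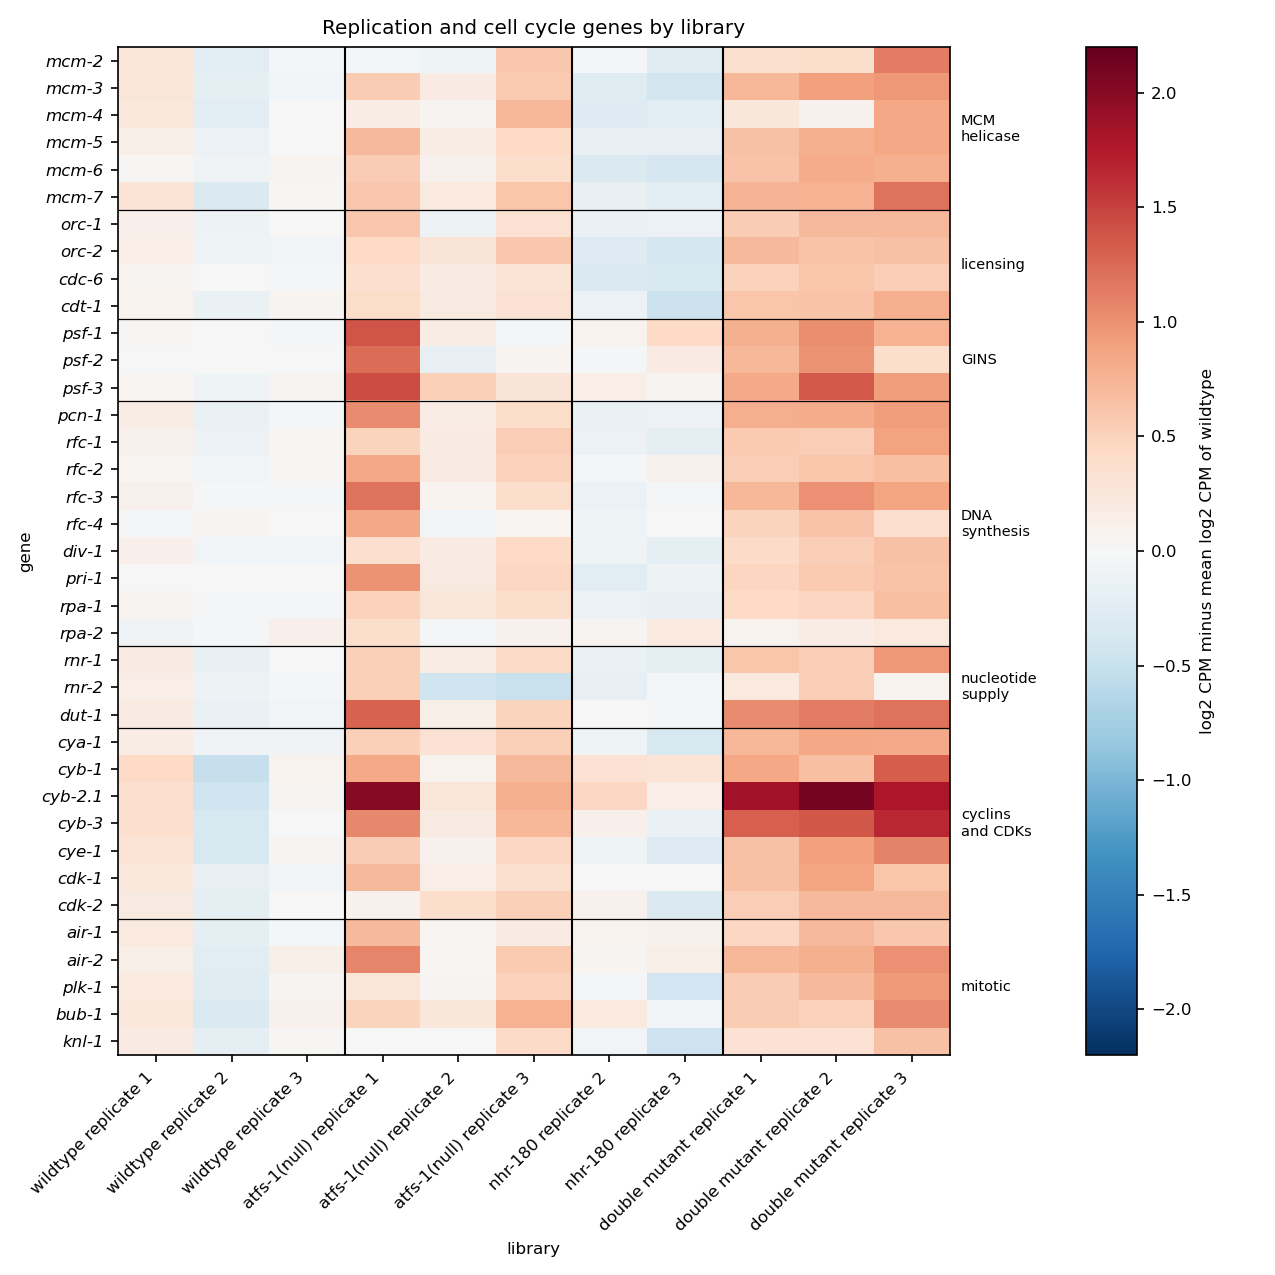
Level of each of the 37 genes (rows, grouped by role) in each of the 11 libraries (columns), as log2 CPM minus the mean log2 CPM of wildtype. Red fills nearly all cells of the 3 double mutant columns, the atfs-1(null) columns differ among themselves with replicate 1 high for the GINS genes psf-1, psf-2 and psf-3 and for cyb-2.1, and the nhr-180 columns are pale, with a median of -0.09 and -0.15.

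Against wildtype, 27 of the 37 genes rose in the double mutant and 0 fell. Here a gene is called at an adjusted p under 0.05 in edgeR's quasi-likelihood test, adjusted over all 16013 genes, and is then said to rise or fall. Of all tested genes 10.1% were called higher and 6.27% lower in this comparison. The median log2 fold change of the 37 genes was 0.70, with a range from 0.15 to 1.89, against a median of 0.02 over all genes. All 37 fold changes were positive. For 34 genes every double mutant library lay above every wildtype library, which held for 24.1% of all tested genes. Against nhr-180, 25 of the 37 genes rose and 0 fell, where 10.3% of all genes were called higher and 8.21% lower. The median was 0.80 (all genes -0.01). All 37 fold changes were positive, although that of rpa-2 was near 0 and was negative under other settings, and for 36 genes every double mutant library lay above both nhr-180 libraries, against 28.2% of all tested genes. These comparisons share the double mutant libraries.

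With all 11 libraries, the origin licensing genes rose in the double mutant as a complete group, 4 of 4 against wildtype and 4 of 4 against nhr-180. The ATPase gene cdc-6, which helps load the helicase at origins, was at 36.2, 34.6 and 33.9 CPM in wildtype, at 45.3, 39.7 and 43.2 CPM in atfs-1(null), at 28.0 and 27.7 CPM in nhr-180 and at 49.7, 53.6 and 50.8 CPM in the double mutant. Its libraries fell into 4 ranges that did not overlap, with nhr-180 lowest and the double mutant highest. The log2 fold change of cdc-6 in the double mutant was 0.56 ± 0.11 (SE) against wildtype (adjusted p = 0.00781) and 0.88 ± 0.13 against nhr-180 (adjusted p = 0.00208).

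The gene of a subunit of the origin recognition complex, orc-2, was at 23.5, 19.8 and 20.2 CPM in wildtype, at 28.7, 25.6 and 31.8 CPM in atfs-1(null), at 17.4 and 16.2 CPM in nhr-180 and at 34.6, 32.6 and 33.0 CPM in the double mutant. Its order of groups was that of cdc-6, again with no overlap between genotypes. It rose by 0.66 ± 0.13 against wildtype (adjusted p = 0.00828) and by 0.99 ± 0.15 against nhr-180 (adjusted p = 0.00284). The licensing factor gene cdt-1 was at 15.8, 13.5 and 15.7 CPM in wildtype, at 19.8, 17.2 and 18.998 CPM in atfs-1(null), at 13.7 and 10.7 CPM in nhr-180 and at 22.9, 23.3 and 26.2 CPM in the double mutant. Per length it was the least abundant of the 37 genes in the double mutant, with a mean of 10.9 TPM (transcript abundance scaled for gene length and library total). It rose by 0.68 ± 0.15 (adjusted p = 0.0111) and 0.98 ± 0.17 (adjusted p = 0.00460) in the same comparisons. The gene of the largest subunit of the origin complex, orc-1, was 0.66 ± 0.17 higher than in wildtype and 0.80 ± 0.19 higher than in nhr-180, with adjusted p = 0.0230 and 0.0177. Its call against wildtype was lost without wildtype replicate 2 or 3 and without double mutant replicate 2 or 3. The call of orc-1 against nhr-180 was lost without double mutant replicate 2.

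Of the 6 MCM genes, which encode the hexamer that unwinds DNA, mcm-3, mcm-5, mcm-6 and mcm-7 rose in the double mutant against both wildtype and nhr-180, and mcm-2 and mcm-4 passed in neither comparison. The level of mcm-6 was 79.1, 73.2 and 80.8 CPM in wildtype, at 115, 83.0 and 102 CPM in atfs-1(null), at 62.1 and 60.0 CPM in nhr-180 and at 120.2, 137 and 133 CPM in the double mutant. No group overlapped another. It rose by 0.74 ± 0.14 (log2 ± SE) against wildtype (adjusted p = 0.00602) and by 1.09 ± 0.16 against nhr-180 (adjusted p = 0.00226). Per length mcm-6 had the highest mean of the 6 genes in the double mutant, 60.5 TPM, against 32.8 TPM in wildtype.

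The level of mcm-3 was 68.0, 48.7 and 53.97 CPM in wildtype, at 82.7, 63.8 and 84.1 CPM in atfs-1(null), at 46.7 and 42.5 CPM in nhr-180 and at 93.7, 105 and 109.8 CPM in the double mutant. The double mutant libraries were above all others, while wildtype and atfs-1(null) overlapped. Its rise of 1.21 ± 0.19 against nhr-180 (adjusted p = 0.00297) was the largest of the MCM genes, and against wildtype it rose by 0.85 ± 0.16 (adjusted p = 0.00649). The levels of mcm-7 were 76.9, 49.9999 and 64.1 CPM, 94.2, 73.2 and 95.3 CPM, 55.9 and 52.5 CPM and 105, 107 and 143 CPM in the order wildtype, atfs-1(null), nhr-180 and double mutant. Its double mutant replicate 3 lay well above the other replicates. It rose by 0.90 ± 0.19 (adjusted p = 0.0105) against wildtype and 1.13 ± 0.22 (adjusted p = 0.00738) against nhr-180. In the same order, the levels of mcm-5 were 67.9, 56.8 and 62.5 CPM, 102, 69.6 and 84.7 CPM, 55.1 and 54.9 CPM and 97.1, 107 and 112.6 CPM. In mcm-5, atfs-1(null) replicate 1 came within the range of the double mutant libraries. It rose by 0.76 ± 0.15 (adjusted p = 0.00832) and 0.94 ± 0.17 (adjusted p = 0.00634).

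The MCM genes without a call had positive fold changes and a wider spread. The log2 fold change of mcm-2 was 0.65 ± 0.25 against wildtype (adjusted p = 0.102) and 0.80 ± 0.29 against nhr-180 (adjusted p = 0.0746), and its double mutant libraries ran from 100.3 to 171 CPM. For mcm-4 these values were 0.43 ± 0.23 (adjusted p = 0.232) and 0.69 ± 0.26 (adjusted p = 0.0915), with double mutant libraries from 64.02 to 108 CPM. In both genes double mutant replicate 3 was the highest of the 11 libraries.

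The 3 GINS genes, whose products complete the active helicase, differed from the MCM genes in how their libraries were spread. The highest per length of the 3 in the double mutant, psf-2, was at 9.70, 9.76 and 9.60 CPM in wildtype, at 22.9, 8.57 and 10.1 CPM in atfs-1(null), at 9.38 and 10.99 CPM in nhr-180 and at 16.2, 19.4 and 12.7 CPM in the double mutant. The wildtype libraries lay close together, and the single highest value was that of atfs-1(null) replicate 1. The log2 fold change of psf-2 was 0.73 ± 0.32 against wildtype (adjusted p = 0.142) and 0.66 ± 0.37 against nhr-180 (adjusted p = 0.232), neither past the threshold. Of the 3, psf-3 rose against wildtype, by 1.05 ± 0.27 (adjusted p = 0.0244), and its value against nhr-180 was 0.95 ± 0.31 (adjusted p = 0.0552). For psf-1 the values were 0.87 ± 0.32 (adjusted p = 0.0893) and 0.59 ± 0.36 (adjusted p = 0.281). The median of the GINS genes relative to wildtype was 1.38, 0.17 and 0.05 (log2) in the 3 atfs-1(null) libraries, so replicate 1 was far above the others.

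Among the 9 genes of DNA synthesis, 6 rose against wildtype and 7 against nhr-180. The PCNA gene pcn-1, the sliding clamp, had the highest level per length of all 37 genes in the double mutant, 178 TPM, against 90.5 TPM in wildtype. It rose by 0.84 ± 0.20 against wildtype (adjusted p = 0.0173) and by 0.99 ± 0.23 against nhr-180 (adjusted p = 0.0156). The clamp loader gene rfc-1 was at 75.2, 64.4 and 72.3 CPM in wildtype, at 99.2, 79.98 and 103 CPM in atfs-1(null), at 64.3 and 61.0 CPM in nhr-180 and at 105, 102 and 130.1 CPM in the double mutant. Here atfs-1(null) lay wholly above wildtype and reached the lower double mutant libraries. It rose by 0.67 ± 0.15 (adjusted p = 0.0118) and 0.84 ± 0.17 (adjusted p = 0.00827) against wildtype and nhr-180. Of the other clamp loader genes, rfc-2 and rfc-3 also rose in both comparisons, by 0.60 ± 0.16 and 0.87 ± 0.24 against wildtype, and rfc-4 passed in neither (0.50 ± 0.21 against wildtype, adjusted p = 0.131).

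The gene of the B subunit of DNA polymerase alpha-primase, div-1, was at 34.4, 30.5 and 30.2 CPM in wildtype, at 40.9, 35.8 and 42.8 CPM in atfs-1(null), at 29.5 and 27.4 CPM in nhr-180 and at 42.4, 46.3 and 49.6 CPM in the double mutant. Its groups stood in the order nhr-180, wildtype, atfs-1(null) and double mutant, and only the last pair overlapped. It rose by 0.54 ± 0.13 against wildtype (adjusted p = 0.0160) and 0.69 ± 0.14 against nhr-180 (adjusted p = 0.00977). The primase subunit gene pri-1 passed against nhr-180 (0.74 ± 0.21, adjusted p = 0.0327) and missed the threshold against wildtype (0.56 ± 0.18, adjusted p = 0.0627).

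The subunits of replication protein A, which coats single-stranded DNA, had unlike values. The large subunit gene rpa-1 was at 109.6, 103 and 102 CPM in wildtype, at 149.6, 126 and 137 CPM in atfs-1(null), at 96.1 and 94.1 CPM in nhr-180 and at 142.2, 145 and 166 CPM in the double mutant. It rose by 0.52 ± 0.12 against wildtype (adjusted p = 0.0149) and 0.67 ± 0.14 against nhr-180 (adjusted p = 0.00948). The other subunit gene, rpa-2, was at 96.9, 100.4 and 112 CPM in wildtype, at 134, 100.7 and 109 CPM in atfs-1(null), at 107 and 119.6 CPM in nhr-180 and at 109, 115 and 119 CPM in the double mutant. The ranges of all 4 genotypes overlapped. Its log2 fold change was 0.15 ± 0.14 against wildtype (adjusted p = 0.463) and 0.01 ± 0.15 against nhr-180 (adjusted p = 0.963), the smallest of the 37 genes in both comparisons. The difference between the subunits was not tested.

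The calls of the nucleotide supply genes were split as well, and the difference between the subunits of ribonucleotide reductase was not tested. The large subunit gene of ribonucleotide reductase, rnr-1, was at 110.3, 86.9 and 97.0 CPM in wildtype, at 141, 109.9 and 131 CPM in atfs-1(null), at 87.7 and 84.3 CPM in nhr-180 and at 148, 141 and 189 CPM in the double mutant. The double mutant range began just above that of atfs-1(null). It rose by 0.70 ± 0.16 against wildtype (adjusted p = 0.0131) and 0.89 ± 0.18 against nhr-180 (adjusted p = 0.00890). The small subunit gene rnr-2 was at 165, 138 and 145 CPM in wildtype, at 214, 109 and 106 CPM in atfs-1(null), at 132 and 145 CPM in nhr-180 and at 172, 216 and 157 CPM in the double mutant. Within atfs-1(null), replicate 1 was near the highest of all libraries while replicates 2 and 3 were the lowest of all 11. The fold changes of rnr-2 were 0.28 ± 0.25 (adjusted p = 0.462) and 0.39 ± 0.28 (adjusted p = 0.363), without a call. The dUTPase gene dut-1, whose product keeps uracil out of DNA, rose by 1.12 ± 0.25 against wildtype (adjusted p = 0.0124) and 1.15 ± 0.28 against nhr-180 (adjusted p = 0.0194).

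All 7 cyclin and cyclin-dependent kinase genes rose against wildtype, and 2 of them, cyb-2.1 and cyb-3, had the largest fold changes of the 37 genes in that comparison. The B-type cyclin gene cyb-2.1 was at 15.6, 8.83 and 12.5 CPM in wildtype, at 48.5, 14.5 and 20.9 CPM in atfs-1(null), at 16.5 and 13.3 CPM in nhr-180 and at 43.5, 52.2 and 41.5 CPM in the double mutant. Except for atfs-1(null) replicate 1, which lay among the double mutant libraries, all libraries of the other genotypes were under 41.5 CPM, the lowest of the double mutant. It rose by 1.89 ± 0.39 against wildtype (adjusted p = 0.00892) and 1.62 ± 0.44 against nhr-180 (adjusted p = 0.0281), the largest log2 fold changes of the 37 genes. It has a similar copy, cyb-2.2, and reads of the copies may have been split between them, so both values are uncertain.

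The cyclin B3 gene cyb-3 was at 78.1, 47.3 and 60.4 CPM in wildtype, at 127, 69.4 and 100.98 CPM in atfs-1(null), at 65.2 and 54.5 CPM in nhr-180 and at 151, 157 and 192 CPM in the double mutant. Its double mutant libraries lay above all others, and wildtype overlapped both single mutants. It rose by 1.43 ± 0.24 against wildtype (adjusted p = 0.00344) and 1.48 ± 0.28 against nhr-180 (adjusted p = 0.00654). The cyclin A gene cya-1 was at 29.8, 24.98 and 24.96 CPM in wildtype, at 38.02, 33.1 and 37.9 CPM in atfs-1(null), at 24.9 and 20.8 CPM in nhr-180 and at 43.9, 47.8 and 47.5 CPM in the double mutant. All atfs-1(null) libraries lay between wildtype and the double mutant. It rose by 0.81 ± 0.13 (adjusted p = 0.00318) and 1.02 ± 0.15 (adjusted p = 0.00238). The cyclin B1 gene cyb-1 was at 128, 66.1 and 100.2 CPM in wildtype, at 169, 99.9 and 156 CPM in atfs-1(null), at 117 and 116 CPM in nhr-180 and at 169.8, 150.4 and 237 CPM in the double mutant. Wildtype replicate 2 was the lowest of all 11 libraries and double mutant replicate 3 the highest. It rose against wildtype (0.92 ± 0.27, adjusted p = 0.0388) and did not pass against nhr-180 (0.67 ± 0.30, adjusted p = 0.147).

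The cyclin E gene cye-1, whose product drives entry into S phase, and its partner kinase gene cdk-2 rose against wildtype by 0.87 ± 0.19 and 0.65 ± 0.17 (adjusted p = 0.0130 and 0.0287). The mitotic kinase gene cdk-1 rose by 0.71 ± 0.17 (adjusted p = 0.0173). All 3 also rose against nhr-180, by 1.08 ± 0.22, 0.75 ± 0.20 and 0.71 ± 0.19. Per length, cdk-1 was at 98.8 TPM in the double mutant and cdk-2 at 11.8 TPM.

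**Figure D2:**
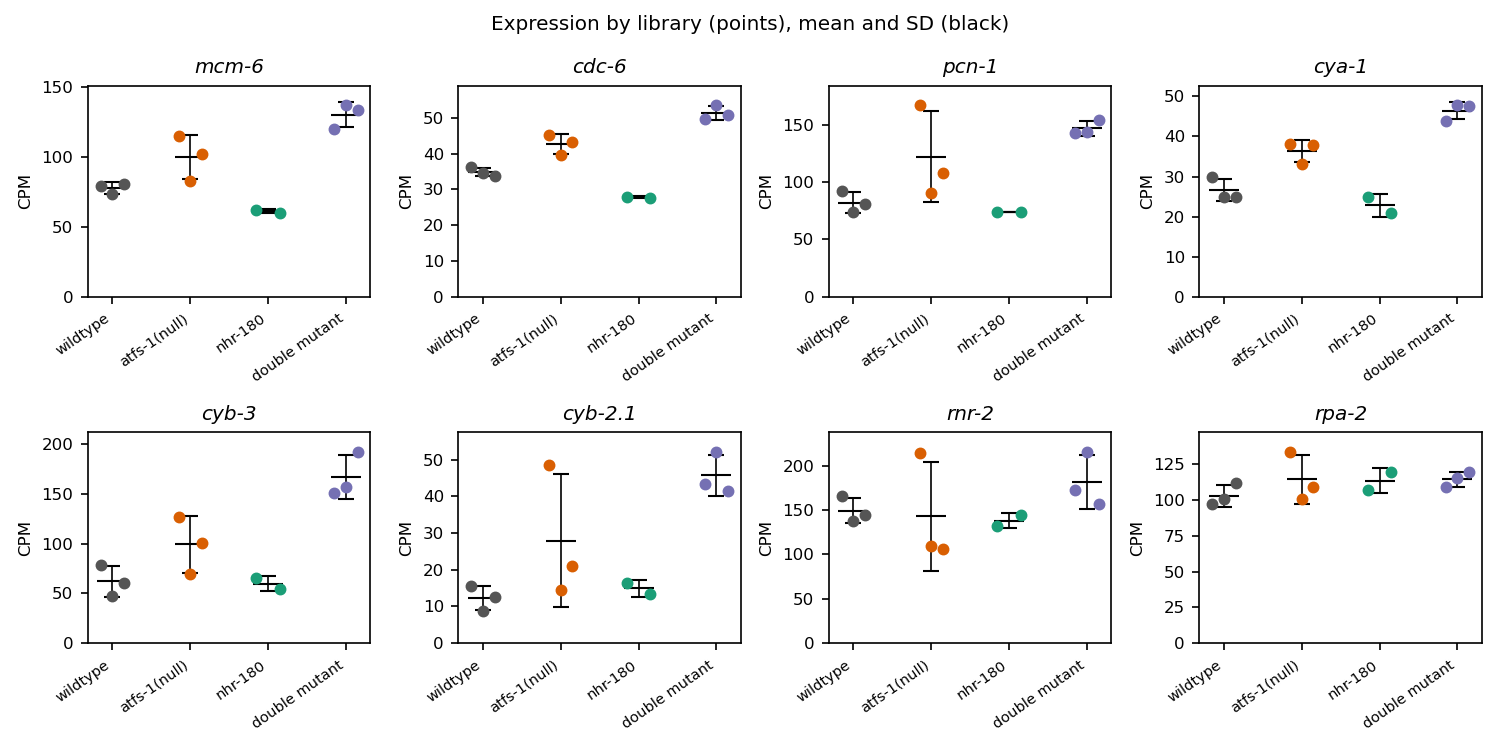
CPM of 8 of the genes in each library (points, by genotype), with the mean and SD of the genotype in black. In mcm-6, cdc-6, cya-1 and cyb-3 the double mutant points lie above all others, in cyb-2.1, pcn-1 and rnr-2 atfs-1(null) replicate 1 stands apart from its replicates, and in rpa-2 the genotypes lie close together.

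Of the 5 mitotic genes, air-2, plk-1 and bub-1 rose against wildtype and plk-1 and knl-1 against nhr-180. The Aurora A kinase gene air-1, the highest of the 5 per length in the double mutant (103.5 TPM), was at 88.8, 67.1 and 75.5 CPM in wildtype, at 126, 78.97 and 86.6 CPM in atfs-1(null), at 80.7 and 81.4 CPM in nhr-180 and at 105, 126 and 115 CPM in the double mutant. Its double mutant libraries were above wildtype and nhr-180 and overlapped atfs-1(null). Its log2 fold change was 0.58 ± 0.18 against wildtype (adjusted p = 0.0536) and 0.51 ± 0.21 against nhr-180 (adjusted p = 0.112). The Aurora B kinase gene air-2 rose by 0.84 ± 0.23 against wildtype (adjusted p = 0.0333). The Polo kinase gene plk-1 rose by 0.73 ± 0.18 and 0.95 ± 0.21 (adjusted p = 0.0191 and 0.0117). Of the kinetochore genes, bub-1, which encodes a checkpoint kinase, rose by 0.70 ± 0.21 against wildtype (adjusted p = 0.0401), and knl-1, which encodes a scaffold, rose by 0.69 ± 0.21 against nhr-180 (adjusted p = 0.0400).

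**Figure D3:**
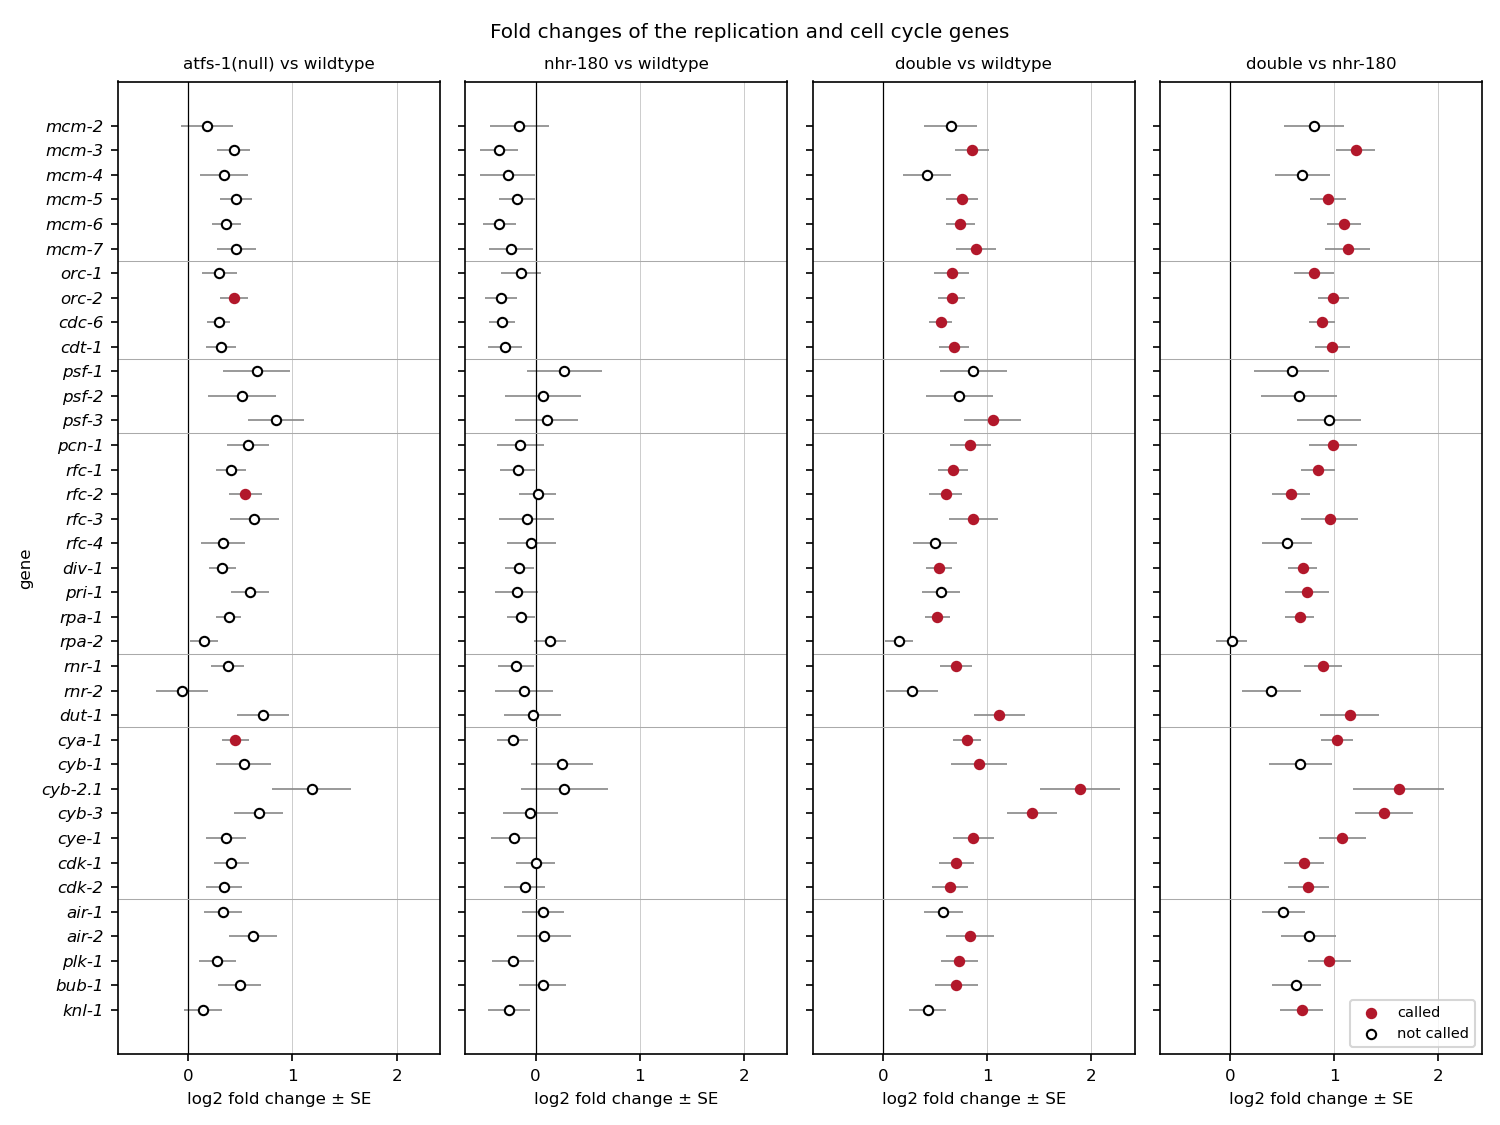
Log2 fold change ± SE of each gene (rows, by role) in 4 comparisons; filled red points passed the adjusted p threshold and open points did not. Against wildtype and against nhr-180 every double mutant point lies above 0 and 27 and 25 are filled, 3 are filled for atfs-1(null) against wildtype, and 0 for nhr-180 against wildtype.

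The counts against wildtype and nhr-180 depended on single libraries. Against wildtype, 10 genes were called without wildtype replicate 3, 11 without wildtype replicate 2, 15 without double mutant replicate 3 and 17 without double mutant replicate 2. Calls over all genes then also fell from 2618 to 1121, 1480, 1431 and 1532. Against nhr-180, 5 genes were called without nhr-180 replicate 3 and 8 without nhr-180 replicate 2, where the nhr-180 group was 1 library and the calls over all genes fell from 2961 to 437 and 843. The median fold change stayed between 0.62 and 0.79 against wildtype and between 0.76 and 0.90 against nhr-180 when each of the 11 libraries was left out. The calls of mcm-3, mcm-5, mcm-6, mcm-7, orc-2, cdc-6, cdt-1, cya-1, cyb-2.1 and cyb-3 against wildtype held under all 21 alternatives, and so did those of mcm-3, mcm-6, orc-2, cdc-6 and cya-1 against nhr-180. Without both atfs-1(null) replicate 1 and wildtype replicate 2, 30 genes were called against wildtype (11.9% of all genes were called higher) and 32 against nhr-180 (15% of all genes).

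In atfs-1(null) alone, 3 of the 37 genes rose against wildtype and 0 fell. They were the origin gene orc-2 (0.44 ± 0.13, adjusted p = 0.0483), the clamp loader gene rfc-2 (0.55 ± 0.16, adjusted p = 0.0432) and the cyclin A gene cya-1 (0.45 ± 0.13, adjusted p = 0.0431). Of all genes 7.54% were called higher and 6.77% lower, so the count of calls was near the background. The fold changes leaned one way: 36 of 37 were positive, with a median of 0.41 against 0.06 for all genes, 22 had an unadjusted p under 0.05 (16.6% of all genes were higher at that level), and DESeq2 called 9 (9.43% of all genes). For 13 genes every atfs-1(null) library lay above every wildtype library, against 16.3% of all genes. Among the genes without a call, cyb-2.1 was at 1.18 ± 0.38 (adjusted p = 0.0619), psf-2 at 0.52 ± 0.32 (adjusted p = 0.309), cdc-6 at 0.29 ± 0.11 (adjusted p = 0.102), mcm-6 at 0.36 ± 0.14 (adjusted p = 0.105) and rnr-2 at -0.06 ± 0.25 (adjusted p = 0.891). The signs of psf-2 and rnr-2 turned when single libraries were left out.

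These values rested on the 3 atfs-1(null) libraries unequally. Of the 37 genes, 26 were highest in replicate 1 and 11 in replicate 3, and 33 were lowest in replicate 2. Without replicate 1, 0 genes were called, where 6.85% of all genes were called higher, and the median was 0.29. Without replicate 2, 16 were called (8.78% of all genes). Without replicate 3, 1 was called (5.96% of all genes), psf-3, which was not called with all libraries. Leaving out wildtype replicate 1 left 1 call (4.63% of all genes), and leaving out any 1 of wildtype replicates 2 and 3, the double mutant replicates or the nhr-180 replicates left 0, while 3.74% to 6.74% of all genes were called higher. Without both atfs-1(null) replicate 1 and wildtype replicate 2 the count was 0 (6.49% of all genes) and the median 0.23.

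In nhr-180 alone no gene of the 37 was called in either direction. Of all genes 1.57% were called higher and 0.662% lower. The fold changes against wildtype were negative for 27 genes and their median was -0.14, with all genes at -0.02. At an unadjusted p under 0.05, 3 genes were lower, against 7.21% of all genes, and DESeq2 called 0, against 2.4% of all genes lower. The 3 were mcm-6 (-0.35 ± 0.16, adjusted p = 0.260), orc-2 (-0.33 ± 0.15, adjusted p = 0.262) and cdc-6 (-0.33 ± 0.12, adjusted p = 0.195). Their count was near the background. For 11 genes both nhr-180 libraries lay below all wildtype libraries and for 2 above them, where 22.4% of all genes lay below and 25% above.

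Between the double mutant and atfs-1(null) no gene of the 37 was called by edgeR or by DESeq2, although 35 fold changes were positive and the median was 0.29. Of all genes 0.312% were called higher and 0.131% lower by edgeR, and DESeq2 called 0.931% higher. At an unadjusted p under 0.05, 9 genes were higher, against 4.52% of all genes. They were mcm-3, mcm-6, mcm-7, cdc-6, cdt-1, cya-1, cyb-3, cye-1 and plk-1. The largest was cyb-3 at 0.75 ± 0.24 (adjusted p = 0.314), and for cdc-6 the value was 0.26 ± 0.11 (adjusted p = 0.502). In an edgeR fit with a length trend, described below, mcm-3, mcm-6, mcm-7 and cdt-1 had unadjusted p of 0.108, 0.178, 0.0798 and 0.135. For cdc-6, cya-1, cyb-3, cye-1 and plk-1 it stayed under 0.05 in that fit, and for cdk-1 it came under 0.05. For 12 genes every double mutant library lay above every atfs-1(null) library, against 6.03% of all genes. Without atfs-1(null) replicate 1, 8 genes were called higher, namely pcn-1, rfc-3, psf-1, psf-2, rnr-2, dut-1, cyb-2.1 and cyb-3, the median was 0.46, and 3.53% of all genes were called higher. Oocyte transcripts moved with this change: in the same fit 18 of 21 oocyte genes were called higher (median 1.55), against 0 with all libraries (median 1.02). Of 40 sperm genes 2 were called higher and 2 lower, against 0 with all libraries. The sperm median was 0.68 in this fit and 0.14 with all libraries. The part of oocyte and sperm transcripts in the 8 calls was not tested.

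The interaction compares the effect of the nhr-180 mutation in the atfs-1(null) background with its effect in wildtype. It was positive for 35 of the 37 genes with a median of 0.43 (all genes 0.01), and no gene was called by edgeR, which called 0.275% of all genes positive and 0.862% negative. At an unadjusted p under 0.05, 10 were positive, against 6.33% of all genes. DESeq2 called 2, mcm-6 and cdc-6, against 1.25% of all genes. In edgeR the interaction was 0.73 ± 0.21 for mcm-6 (adjusted p = 0.152), 0.59 ± 0.17 for cdc-6 (adjusted p = 0.143), 0.77 ± 0.24 for mcm-3 (adjusted p = 0.186) and 0.66 ± 0.22 for cdt-1 (adjusted p = 0.207). In these 4 genes nhr-180 had a negative fold change against wildtype, and the double mutant a positive one against atfs-1(null). In an edgeR fit with a length trend, described below, the interaction of cdc-6 was 0.59 ± 0.16 (unadjusted p = 0.00351). It was weaker there for mcm-6 (0.52 ± 0.28, unadjusted p = 0.0868), mcm-3 (0.55 ± 0.26, unadjusted p = 0.0591) and cdt-1 (0.46 ± 0.24, unadjusted p = 0.0781). Without atfs-1(null) replicate 1 the count of edgeR calls was 1, mcm-6 (1.17% of all genes were called positive), and without that library and wildtype replicate 2 it was 1, cyb-2.1 (1.39% of all genes).

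Other genes of the same processes were listed by name. Nearly all of their calls were higher, but in each comparison most genes of each list were not called. Of all genes 10.1% were called higher in the double mutant against wildtype, 10.3% against nhr-180 and 7.54% in atfs-1(null) against wildtype. In atfs-1(null) the counts of mitosis genes and of cell cycle regulators did not exceed that share. Of 31 further genes tested from the replication list, 10 rose in the double mutant against wildtype and 0 fell (median 0.55). Of these 31 genes 14 rose against nhr-180 and 5 in atfs-1(null) against wildtype. The 5 were the origin gene orc-3 (0.82 ± 0.21, adjusted p = 0.0246), the DNA ligase gene lig-1 and the genes mcm-10, ctf-4 and clsp-1 of the replication fork. In the double mutant against wildtype lig-1 rose by 0.80 ± 0.17 (adjusted p = 0.0109) and ctf-4 by 0.90 ± 0.19 (adjusted p = 0.0102). The replication list also held wee-1.3, a kinase gene of the cell cycle, which rose by 1.11 ± 0.24 (adjusted p = 0.0112). Of 52 further mitosis and kinetochore genes, 17 rose in the double mutant against wildtype (median 0.66), 23 against nhr-180 and 1 in atfs-1(null). The centromere gene knl-2 rose in all 3 comparisons, by 0.94 ± 0.14, 0.97 ± 0.16 and 0.56 ± 0.14. Spindle genes among them were spd-2, of the centrosome (0.82 ± 0.17 against wildtype), and zen-4, the kinesin of cytokinesis (0.79 ± 0.17).

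Of 31 further cell cycle regulators, 10 rose in the double mutant against wildtype, 14 rose and 1 fell against nhr-180, and 2 rose in atfs-1(null), lin-53 and cdc-25.3. The gene that fell against nhr-180 was cki-1, an inhibitor of cyclin-dependent kinases (-0.54 ± 0.17, adjusted p = 0.0489). The largest change against wildtype was that of the phosphatase gene cdc-25.3, which rose by 3.42 ± 0.67 in the double mutant (adjusted p = 0.00756) and 2.29 ± 0.69 in atfs-1(null) (adjusted p = 0.0491). The cyclin gene cyb-2.2, the copy of cyb-2.1, rose by 1.87 ± 0.39 (adjusted p = 0.00972). The single call in nhr-180 against wildtype over these 3 lists was cyd-1, the D-type cyclin of G1, which fell by 1.38 ± 0.28 (adjusted p = 0.0326). Of all genes 0.662% were called lower in that comparison. Without atfs-1(null) replicate 1 and wildtype replicate 2, 0 genes of the 3 lists were called in atfs-1(null) against wildtype (6.49% of all genes were called higher). In the double mutant against wildtype the counts were then 14 replication, 20 mitosis and 10 regulator genes (11.9% of all genes).

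Oocyte transcripts were higher in the same libraries as the 37 genes. Of 21 oocyte genes, 19 rose in the double mutant against wildtype (median 2.03) and 19 against nhr-180 (median 1.95), with oma-1, a regulator of oocyte maturation, up by 1.66 ± 0.26 against wildtype (adjusted p = 0.00252). The oocyte median relative to wildtype was 0.50, -0.58 and 0.08 in wildtype, 1.60, 0.20 and 0.88 in atfs-1(null), 0.29 and 0.02 in nhr-180 and 1.78, 2.09 and 2.19 in the double mutant. Within each genotype the libraries stood in the same order by the oocyte median and by the median of the 37 genes. Without atfs-1(null) replicate 1 and wildtype replicate 2, 19 of the oocyte genes were called higher against wildtype. The summed level of the oocyte genes ranged over 311 to 749 TPM in wildtype, 526 to 1367 TPM in atfs-1(null), 579.6 to 759 TPM in nhr-180 and 1712 to 2607 TPM in the double mutant.

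Of 30 general germline genes, 4 rose against wildtype and 4 against nhr-180 in the double mutant (medians 0.49 and 0.46), zim-2, deps-1 and glp-1 in both comparisons, him-8 against wildtype and mes-2 against nhr-180. Of all genes 10.1% and 10.3% were called higher in these comparisons, so both counts were near the background. The gene glp-1 encodes the Notch receptor that keeps germ cells dividing and rose by 0.99 ± 0.22 against wildtype (adjusted p = 0.0132) and 1.2995 ± 0.26 against nhr-180 (adjusted p = 0.00835). The summed level of the 30 general germline genes ranged over 911 to 1417 TPM in wildtype, 1054 to 1919.6 TPM in atfs-1(null), 970.3 to 1299 TPM in nhr-180 and 1298 to 2393 TPM in the double mutant. Of 40 sperm genes 0 rose in the double mutant and 1 fell, fog-3, which directs germ cells to the sperm fate (-1.301 ± 0.40, adjusted p = 0.0466), with a median over the list of 1.02 against wildtype and 0.65 in nhr-180. Without atfs-1(null) replicate 1 and wildtype replicate 2, 23 sperm genes were called higher in the double mutant against wildtype. The sperm genes' summed level ranged over 2150.0 to 6437 TPM in wildtype, 4917 to 13261 TPM in atfs-1(null), 6936 to 7009 TPM in nhr-180 and 8648 to 11939.5 TPM in the double mutant. In nhr-180, then, the sperm median was above wildtype, by 0.38 without wildtype replicate 2 and atfs-1(null) replicate 1, while that of the 37 genes was below it. The part of germ cell number, oocyte transcripts or developmental timing in the values of the 37 genes was not tested.

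**Figure D4:**
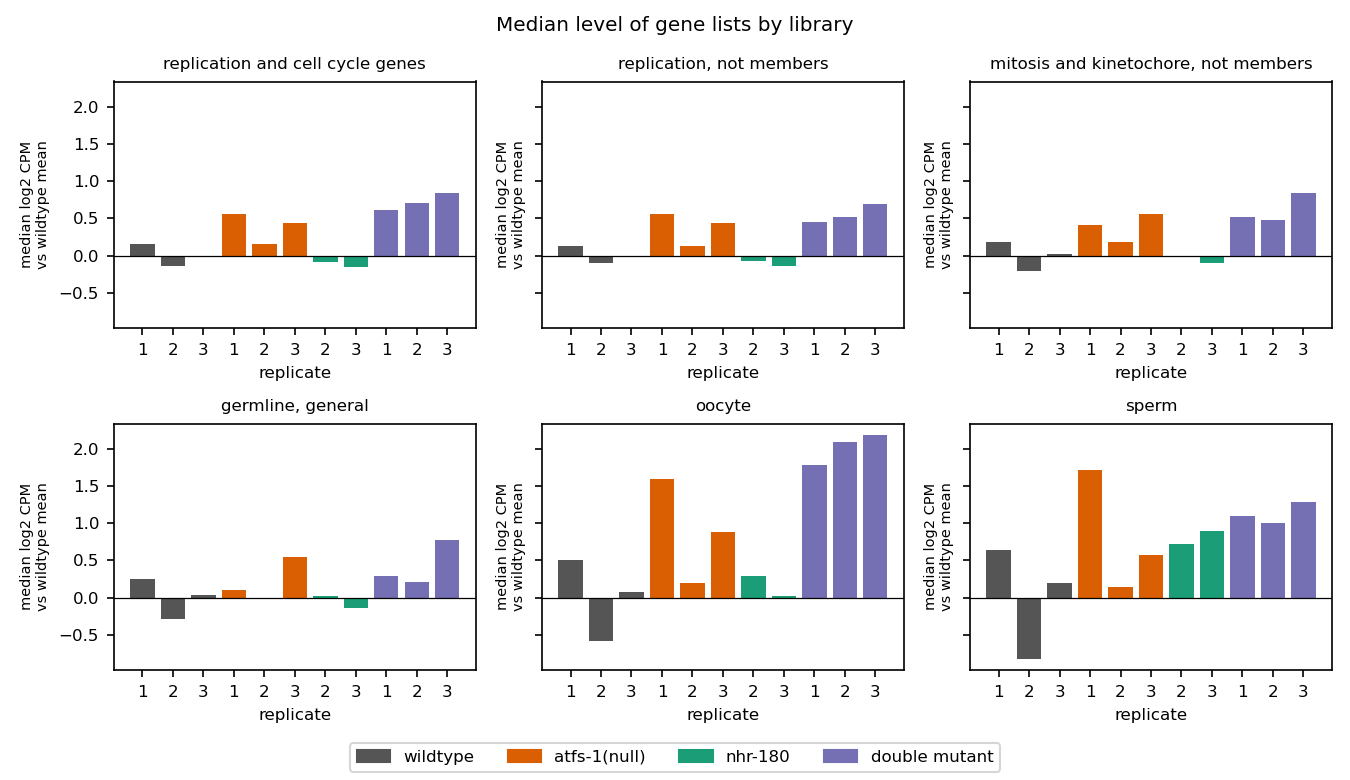
Median log2 CPM relative to the wildtype mean of 6 gene lists in each library (bars, labelled by replicate, coloured by genotype). The replication and cell cycle genes and the oocyte genes are highest in the 3 double mutant libraries, with oocyte medians of 1.78, 2.09 and 2.19, while the sperm genes are highest in atfs-1(null) replicate 1 at 1.72.

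Few somatic markers were called in the double mutant against wildtype, and most of these were lower. Of all genes 10.1% were called higher and 6.27% lower in this comparison. There, 2 of 11 intestine genes fell, act-5, an intestinal actin (-0.55 ± 0.16), and elt-2, the GATA factor of the gut (-0.42 ± 0.12). Of 12 hypodermis and seam genes nhr-74 and wrt-2 fell, of 12 body wall muscle genes mup-2 and dim-1 fell, and of 12 neuron genes snb-1 rose (0.57 ± 0.14). Their medians were -0.30, -0.39, -0.29 and -0.28. Against nhr-180, the seam gene egl-18 (0.89 ± 0.23) and snb-1 (0.57 ± 0.16) rose in the double mutant, and nhr-74 fell (-2.07 ± 0.30). Of all genes 10.3% were called higher and 8.21% lower in that comparison. The summed level of the muscle genes ranged over 5069.9 to 6203 TPM in wildtype and 4011 to 6578 TPM in the double mutant.

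Gene length moved with single libraries as well. Exonic length was taken from the WBcel235 annotation, and the tested genes were split into 4 equal classes at 865, 1331 and 1995 bases. In atfs-1(null) replicate 1 the median of all genes against wildtype was 0.30 (log2) in the shortest class and -0.42 in the longest, and in nhr-180 replicate 3 it was 0.26 and -0.31. In atfs-1(null) replicate 3 and double mutant replicate 3 the order was turned, -0.06 and 0.20, and -0.12 and 0.21. Of the 37 genes 3, 9, 8 and 17 fell in the classes from shortest to longest. The 3 shortest were the GINS genes, which were high in atfs-1(null) replicate 1, and the longest class held all 6 MCM genes.

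Against wildtype the double mutant had little of this slope, with medians over all genes of 0.03, 0.04, -0.01 and 0.02 from the shortest to the longest class, and the 37 genes had 0.87, 0.71, 0.62 and 0.70. In nhr-180 against wildtype the medians over all genes were 0.14, 0.08, -0.04 and -0.17. Those of the 37 genes were 0.11, -5.3e-05, -0.08 and -0.21, so both fell with length. Between the double mutant and atfs-1(null) the medians over all genes were -0.06, -0.04, -0.01 and 0.08. Those of the 37 genes were 0.21, 0.22, 0.30 and 0.35, so both rose with length. In the interaction the medians over all genes were -0.19, -0.12, 0.05 and 0.27 and those of the 37 genes 0.11, 0.21, 0.44 and 0.55, so both rose with length. When a length trend was added to the scaling of each library, an alternative chosen after the data were seen, 32 genes were called in the double mutant against wildtype and 30 against nhr-180, with 11.6% and 13.7% of all genes called higher. In the same fit 8 were called in atfs-1(null) against wildtype (8.77% of all genes) and 0 in the interaction (0.4% of all genes), and the interaction median was 0.39.

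**Figure D5:**
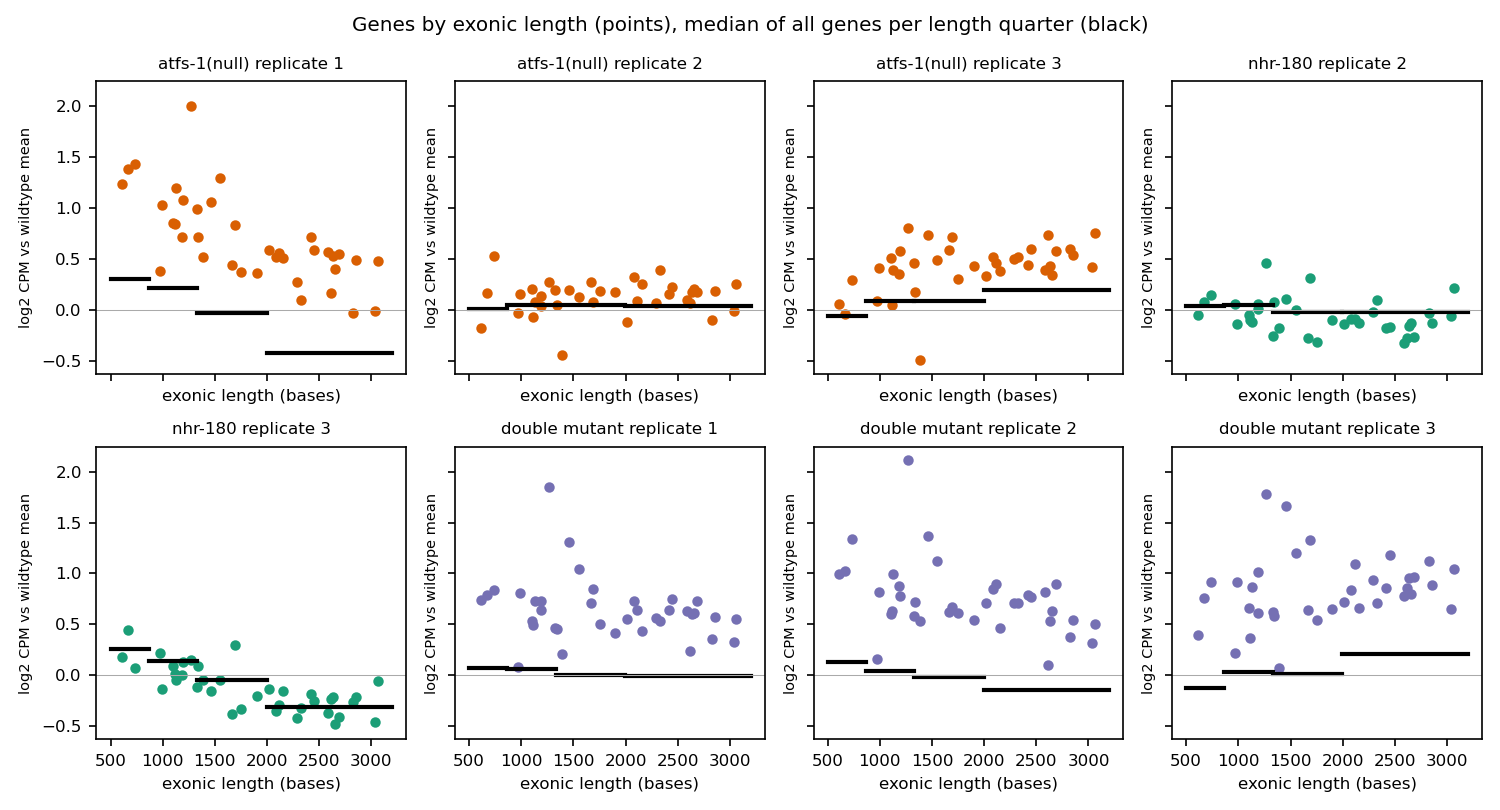
Log2 CPM relative to the wildtype mean against exonic length in bases for the 37 genes (points) in the 8 mutant libraries, with the median of all tested genes in each length class as black lines. In atfs-1(null) replicate 1 and nhr-180 replicate 3 points and lines fall with length, while in the double mutant libraries nearly all points lie above the lines.

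The 37 genes are protein-coding and lie on the autosomes, 11 on chromosome I, 4 on II, 12 on III, 5 on IV and 5 on V. None lies on X, which holds 14.2% of the tested genes. In WBcel235, whose gene starts and ends match those of the count table for 46863 of 46926 genes, mcm-6 lies at chrIII:9794367-9798644 (plus strand), cya-1 at chrIII:9106699-9109272 (minus strand), cyb-3 at chrV:15395696-15397353 (plus strand) and cyb-2.1 at chrIV:10985985-10987426 (plus strand). Exons of 14 of the genes overlap those of a gene on the opposite strand, and those of cdk-2 also overlap a gene on its own strand, K03E5.9, so its counts are less certain. Whether the counting used strand is not given in these sources.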

How the data were processed

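RNA sequencing libraries of whole L4 larvae were analysed from 11 samples of 4 genotypes, called biological replicates in the labels. Per the labels, RNA was extracted with Trizol and read from both ends in stranded libraries. The authors deposited unnormalised counts for 46926 genes, counted with the featureCounts program, version 1.5.2 according to the submitters' processing notes, and a table of TPM for 18798 genes, scaled for gene length by the authors. No aligner or annotation release is named in these sources, nor whether the counting used strand.

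Counts were tested with edgeR 4.0.16 (R 4.3.3). The filterByExpr filter left 16013 genes, which were scaled with TMM factors. The quasi-likelihood model used all 11 libraries and estimated 1 mean for each genotype, and p-values were adjusted over all tested genes by the Benjamini-Hochberg method, two-sided, with a threshold of 0.05. The standard error of a log2 fold change was its size divided by the root of F. DESeq2 1.42.0 and limma 3.58.1 on TPM served as alternatives. The fitting code was tested on simulated data. Log2 levels used a prior count of 2.

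The 37 genes found, and the 10 further lists of genes with their tests, were chosen with earlier results of these data known, so that no list is independent of them. Values of all libraries are given for the 14 genes with the smallest adjusted p and for the gene of each role with the highest mean TPM. Genes of the further lists were named when among the 3 with the smallest adjusted p of their list, and where 5 or fewer were called the rest were named after their values were seen. The main model did not pair libraries by replicate number.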

Additional observations from a re-analysis of the deposited data

How the results depend on the processing

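Of the 37 genes, 3 were called in atfs-1(null) against wildtype. The count was 1 with DESeq2 size factors (6.93% of all genes called higher). With no filter it was also 1 (4.42%), but this was cyb-2.1, and none of the 3 stayed. It was 0 in a fit of the compared groups only (3.89%), with the replicate block (7.32%) and without both libraries that stand apart (6.49%). DESeq2's Wald test called 9 (9.43%). On TPM the count was 8 with a pseudocount of 1 (9.94%) or 0.1 (10.2%) and 7 with no filter (7.97%). It was 8 with the length trend (8.77%) and ran from 0 to 16 when each library was left out. Leaving out each library gave 10 to 32 calls in the double mutant against wildtype (27 in all libraries), 5 to 31 against nhr-180 (25), 0 to 8 against atfs-1(null) (0) and 0 to 1 in the interaction (0). Without both libraries that stand apart the double mutant against atfs-1(null) had 8 calls and the interaction 1, and the medians became 0.23 for atfs-1(null), 0.46 between the double mutant and atfs-1(null) (0.17 to 0.46 when each library was left out) and 0.60 in the interaction. DESeq2's Wald test called 2 in the interaction. Signs turned in uncalled genes. In atfs-1(null), psf-2 ran from -0.080 to 0.77 and rnr-2 from -0.49 to 0.12 when each library was left out, and psf-2 was at -0.045 without both libraries. For rpa-2 against nhr-180 the value was -0.011 with no filter, -0.0076 in the compared groups only, -0.015 without both libraries and -0.062 to 0.10 when each library was left out. With the replicate block, 28 genes were called against wildtype and 21 against nhr-180. Whether the numbers pair the libraries was not decided. Of 15 same-numbered pairs, 5 deviated together from their genotype means at a correlation over 0.1, and 5 of 11 libraries correlated best with their own number. The highest correlation was 0.61 for a same-numbered pair and 0.41 for a pair of different numbers. Deviations cancel out within a genotype, which forces some correlations to be negative, so these values cannot decide the pairing. On TPM with a pseudocount of 1 the median of all genes shifted by 0.11 in atfs-1(null), 0.13 in the double mutant against wildtype and 0.11 against nhr-180. Of the named genes' called values under all alternatives, 582 stayed called, 69 were no longer past the threshold and 0 turned sign. The causes of these changes were not tested.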
